A study of Danio rerio with 8 samples.

Results

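The genes examined were 9 regulators of presomitic mesoderm and of the first muscle precursors, namely the T-box genes *tbx16* and *tbx6*, the bHLH genes *msgn1*, *mespaa*, *mespab*, *myf5* and *myod1*, the repressor *ripply1* and the protocadherin gene *pcdh8*. They were chosen by gene symbol, with earlier results of these data known, and all 9 were found among the 32520 Ensembl genes of the count table. The libraries came from pools of whole zebrafish embryos at 8 hpf (hours post fertilization, during gastrulation), with 4 from wild-type embryos and 4 from *miR-34a-/-* embryos, in which CRISPR/Cas9 had deleted the microRNA gene *miR-34a*. Both genotypes were in the *casper* background, which lacks most pigment, and each genotype came from its own stock, so that mothers of the mutants also carried the deletion. The deletion cannot be told apart from other differences between the lines. Embryos were staged by morphology and time of fertilization, and the paper allows that the mutants may develop somewhat differently. A difference in stage between the pools was not tested. The pools held 30 embryos according to the methods and 30 to 50 according to the labels.

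Paraxial mesoderm is the tissue on both sides of the notochord that gives rise to the somites and then to the trunk muscle and vertebrae. Its precursors leave the gastrula margin under T-box factors and Msgn1, move to the midline and form the presomitic mesoderm. At the front of that tissue Mesp factors and Ripply proteins set where the next somite boundary will lie, and the protocadherin encoded by *pcdh8* alters the adhesion of the cells. In the cells next to the notochord, which form the first muscle fibres, *myf5* and *myod1* start the myogenic program. At 8 hpf no somite has formed.

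The wild-type libraries held between 7132045 and 11191023 counts (median 9725207) and the *miR-34a-/-* libraries between 8159574 and 15724724 (median 10350116). Levels are given below as CPM (counts scaled to the library size, with TMM factors), and 1 count was worth between 0.0636 and 0.140 CPM on the unscaled totals. The rows of *mir34a*, *mir34b* and *mir34c* had 0 counts in all libraries, which allows up to 3 counts in each, so the targeted gene gave no check of the genotypes. Over 9706 genes with at least 400 counts, pairs of libraries differed by a chi-square per gene of 1.59 to 5.80 within a genotype and 13.1 to 26.6 across genotypes, where sampling noise alone gives about 1, and all 8 were kept as separate samples. The labels do not say whether the pools came from separate clutches, and the p-values below measure the spread between these libraries.

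Of the 9 genes, 8 had enough reads to be tested, with no fewer than 61 counts in any library, and *myod1* had not. In *miR-34a-/-* embryos 7 of the 8 were lower (*tbx16*, *tbx6*, *myf5*, *mespaa*, *mespab*, *ripply1* and *pcdh8*), 0 were higher and *msgn1* did not pass the test (adjusted p under 0.05, edgeR quasi-likelihood test). Among all 13842 genes tested, 22.4% were called lower, 23.0% higher and 45.4% in either direction. The median log2 fold change of the 8 genes was -0.24, against -0.0012 for all genes tested, of which the middle 50% lay between -0.23 and 0.24. The *miR-34a-/-* libraries were all below the wild-type libraries for 5 of the 8 genes and all above them for 0. Of all genes tested 38.8% were separated in this way, 19.2% with the mutants lower and 19.6% with the mutants higher. The changes were mostly small. Against a fold change of 1.5 rather than no change, glmTreat in edgeR called 1 of the 8 genes, *tbx6* (adjusted p = 0.042). Of all 13842 genes tested, it called 536 lower and 542 higher. In bulk RNA, fewer cells of a type and less RNA per cell cannot be told apart.

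**Figure D1:**
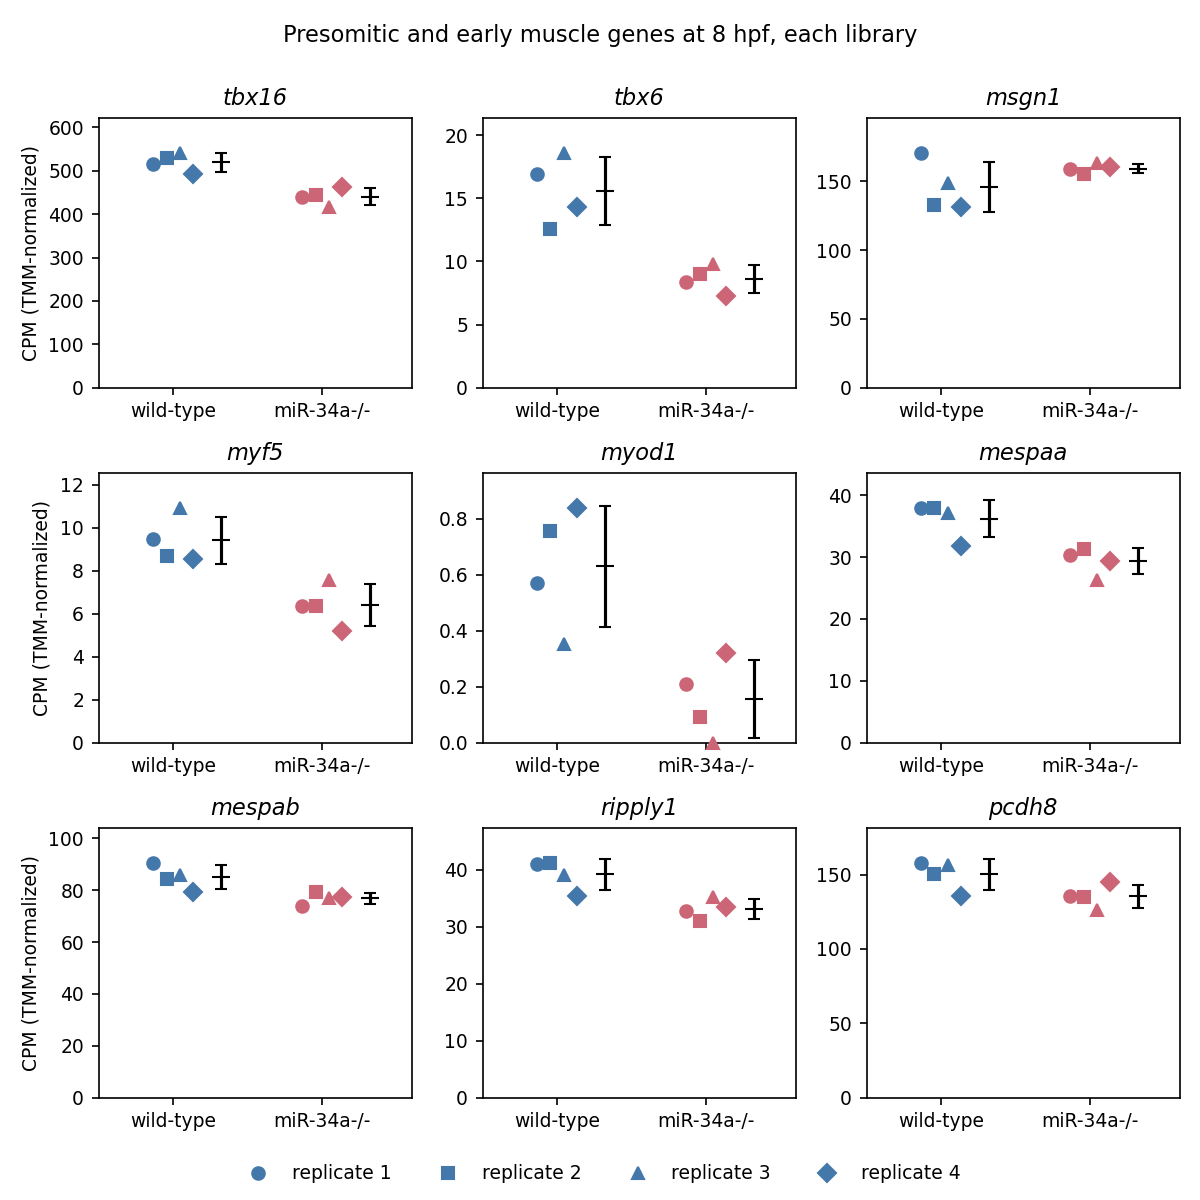
CPM (TMM-normalized, linear axes from 0) of the 9 genes in each of the 4 wild-type (blue) and 4 *miR-34a-/-* (red) libraries, with the mean and SD as black bars and a symbol for each replicate number. The 2 genotypes did not overlap for *tbx16*, *tbx6*, *myf5*, *mespaa* and *ripply1*, nor for *myod1*, whose values were near the floor of 3 counts, and they overlapped for *msgn1*, *mespab* and *pcdh8*.

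*tbx16*, the gene affected in *spadetail* mutants, encodes a T-box factor that paraxial precursors need in order to leave the margin and converge. Its level in the wild-type libraries of replicates 1 to 4 was 515, 529, 542 and 492 CPM, and in the *miR-34a-/-* libraries 439, 445, 417 and 462 CPM. Every mutant library lay below every wild-type library. The wild-type mean was 520 ± 21.3 CPM and the mutant mean 441 ± 18.6 CPM (SD, n = 4 each). The fitted log2 fold change was -0.24 (SE 0.04, 95% interval -0.32 to -0.15, adjusted p = 2.4e-05, edgeR). With 3405 to 7200 counts per library, *tbx16* varied between the mutant replicates with a coefficient of 4.23%, where counting alone would give 1.42%.

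*tbx6*, affected in *fused somites* mutants, encodes the T-box factor that the anterior presomitic mesoderm needs for somite boundaries. It had the largest fall among the 8 genes tested. The wild-type libraries of replicates 1 to 4 had 16.9, 12.6, 18.6 and 14.3 CPM and the *miR-34a-/-* libraries 8.36, 9.02, 9.79 and 7.25 CPM. The highest mutant library was below the lowest wild-type library, and the means were 15.6 ± 2.69 and 8.61 ± 1.08 CPM (SD, n = 4 each). The log2 fold change was -0.89 (SE 0.13, 95% interval -1.15 to -0.62, adjusted p = 2.4e-06, edgeR), and 4.85% of all genes tested had a lower value. It rested on 80 to 211 counts per library, and leaving out any 1 library gave values from -0.99 to -0.78. In the RefSeq annotation of another assembly (GRCz12tu) *tbx6* overlaps *nif3l1*, and the use of strand in the counting is not given in the sources used here. The row of *NIF3L1* held 11 to 28 counts per library and did not pass the test (log2 fold change -0.34, SE 0.28, adjusted p = 0.34, edgeR).

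*msgn1* encodes mesogenin, the bHLH factor that acts together with Tbx16 in zebrafish when progenitors become presomitic mesoderm. It differed from the other 7 in sign. Its wild-type libraries had 171, 133, 149 and 131 CPM and its *miR-34a-/-* libraries 159, 156, 163 and 160 CPM. The 4 mutant values lay within the range of the wild-type values, and replicate 1 of wild-type was the highest of all 8 libraries. The means were 146 ± 18.3 and 159 ± 3.18 CPM (SD, n = 4 each), and the fitted log2 fold change was 0.13 (SE 0.06, 95% interval 0.0036 to 0.25, adjusted p = 0.086, edgeR). The test turned on the first wild-type library. Without it *msgn1* was called higher (log2 fold change 0.21, adjusted p = 0.0022, edgeR), and *msgn1* was also called higher when no gene was removed for low counts (adjusted p = 0.033).

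*mespaa* and *mespab* are paralogs whose bHLH products mark the anterior presomitic mesoderm and pattern each segment from front to back. The wild-type libraries had 38.0, 37.9, 37.1 and 31.8 CPM of *mespaa* and the *miR-34a-/-* libraries 30.3, 31.3, 26.3 and 29.4 CPM. The genotypes did not overlap, but the gap between them was narrow, since replicate 4 of wild-type at 31.8 CPM lay close to replicate 2 of the mutants at 31.3 CPM. The means were 36.2 ± 2.98 and 29.4 ± 2.16 CPM (SD, n = 4 each), and the log2 fold change of *mespaa* was -0.30 (SE 0.08, 95% interval -0.46 to -0.15, adjusted p = 0.0018, edgeR). For *mespab* the wild-type libraries had 90.6, 84.4, 85.9 and 79.2 CPM and the *miR-34a-/-* libraries 74.0, 79.2, 76.9 and 77.6 CPM. The ranges met at 79.2 CPM, and the means were 85.0 ± 4.70 and 76.9 ± 2.17 CPM (SD, n = 4 each). The log2 fold change of *mespab* was -0.15 (SE 0.05, 95% interval -0.25 to -0.036, adjusted p = 0.028, edgeR). This call was lost without replicate 1 of wild-type (adjusted p = 0.11), without replicate 1 (0.087) or 3 (0.052) of the mutants, without the filter on low counts (0.059) and in DESeq2 (0.063).

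*ripply1* encodes a corepressor adaptor that ends the activity of Tbx6 where a somite boundary forms. Its wild-type libraries had 41.0, 41.2, 39.1 and 35.4 CPM and its *miR-34a-/-* libraries 32.7, 31.1, 35.3 and 33.4 CPM. The genotypes came close at 35.4 and 35.3 CPM without overlapping. The means were 39.2 ± 2.69 and 33.1 ± 1.74 CPM (SD, n = 4 each), and the log2 fold change was -0.25 (SE 0.07, 95% interval -0.39 to -0.11, adjusted p = 0.0047, edgeR).

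*pcdh8*, also known as paraxial protocadherin, encodes a membrane protein that acts in cell movement and adhesion in paraxial mesoderm. Its wild-type libraries had 158, 150, 157 and 135 CPM and its *miR-34a-/-* libraries 135, 135, 126 and 145 CPM. The genotypes overlapped, since replicate 4 of wild-type was at the level of 2 mutant libraries and below replicate 4 of the mutants. The means were 150 ± 10.3 and 135 ± 7.73 CPM (SD, n = 4 each), and the log2 fold change was -0.15 (SE 0.05, 95% interval -0.25 to -0.040, adjusted p = 0.023, edgeR). The call was lost without replicate 1 (adjusted p = 0.079) or 3 (0.052) of wild-type and without replicate 1 (0.053), 2 (0.056) or 3 (0.099) of the mutants. A second row with the symbol *PCDH8*, next to the first in the row order of the deposited counts, held 0 to 4 counts per library.

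**Figure D2:**
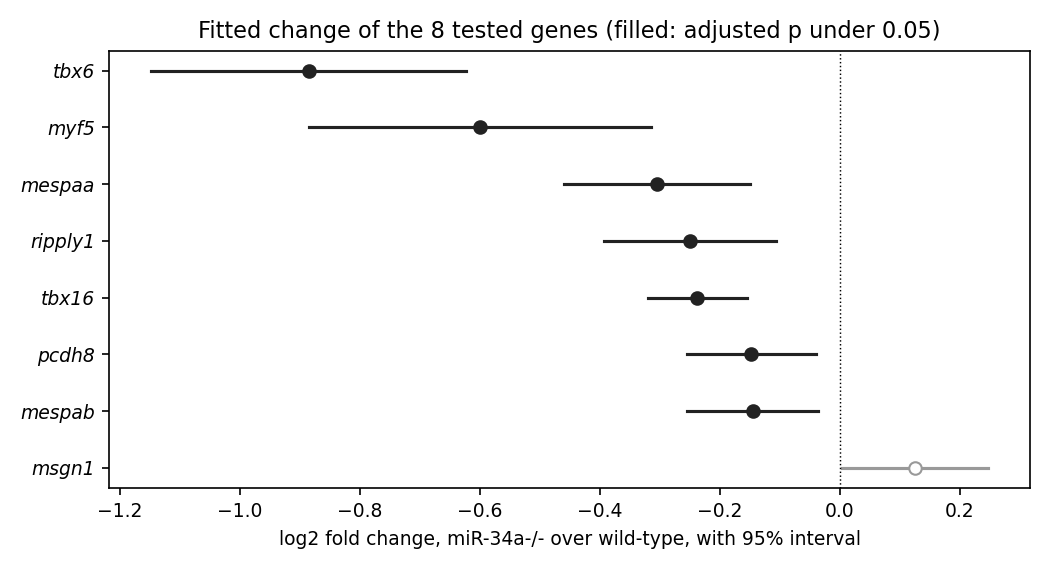
Fitted log2 fold change (*miR-34a-/-* over wild-type, horizontal axis) of the 8 genes tested, with its 95% interval as a line and genes ordered by value. *tbx6* at -0.89 and *myf5* at -0.60 lay furthest from 0, the other 5 genes called lower lay between -0.30 and -0.15, and the interval of *msgn1* (open circle, not called) ran from 0.0036 to 0.25.

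*myf5* encodes the first myogenic regulatory factor to be expressed in zebrafish paraxial mesoderm. The wild-type libraries had 9.49, 8.70, 10.9 and 8.53 CPM and the *miR-34a-/-* libraries 6.38, 6.37, 7.59 and 5.20 CPM. All mutant values were below all wild-type values, with means of 9.42 ± 1.09 and 6.38 ± 0.977 CPM (SD, n = 4 each). The log2 fold change was -0.60 (SE 0.14, 95% interval -0.89 to -0.32, adjusted p = 0.00087, edgeR), on 61 to 124 counts per library, and leaving out any 1 library gave -0.68 to -0.49. In RefSeq *myf5* overlaps the microRNA gene *mir3906* and lies next to *myf6*. There *tbx16*, *mespaa* and *pcdh8* overlap LOC141375942, LOC137490254 and LOC141376236, in that order. The effect of these overlaps on the counts was not tested.

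*myod1* encodes the myogenic factor that commits adaxial cells to muscle, and at 8 hpf it was barely read. The wild-type libraries of replicates 1 to 4 had 5, 8, 4 and 6 counts and the *miR-34a-/-* libraries 2, 1, 0 and 5 counts, so that 3 of the mutant libraries were at or under the floor of 3 counts. In CPM the wild-type libraries ranged from 0.353 to 0.839 and the mutant libraries from 0 to 0.321. The 2-sided exact permutation test gave p = 0.0286, the smallest that 35 splits of 8 libraries can give. This separation rests on values near the floor, since 3 counts would be 0.368 CPM in replicate 3 of the mutants on the unscaled totals, and the raw counts of the genotypes overlapped. The gene was removed by the filter on low counts. Without the filter, edgeR gave a log2 fold change of -1.71 (adjusted p = 0.026) and DESeq2 -1.86 (adjusted p = 0.079), values that rest on 0 to 8 counts per library.

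By the same exact permutation test on CPM, *tbx16*, *tbx6*, *myf5*, *mespaa* and *ripply1* also reached p = 0.0286, while *mespab* and *pcdh8* had p = 0.0571 and *msgn1* had p = 0.257. Genotypes that do not overlap always give the smallest p, so this test restates the separation of the genes. Of all genes tested 38.8% were separated, and these p-values were not adjusted over genes. Replicate 4 of wild-type, the shallowest library, was the lowest of the 4 wild-type libraries for 7 of the 8 genes tested, all but *tbx6*. How often this library was the lowest over all genes was not computed. Without replicate 4 of wild-type 7 of the 8 genes were again lower, 0 higher and *msgn1* not called. Of all 14236 genes then tested, 2976 were lower and 3042 higher. Without replicate 1 of wild-type, 5 were lower (*mespab* and *pcdh8* were lost) and *msgn1* was higher. In that fit 2886 of all 14255 genes tested were lower and 2968 higher. The part of these libraries in the results was not otherwise tested.

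Whether related genes changed by different amounts was examined in 4 pairs from the log2 ratio of their CPM within each library, which does not depend on library size. The log2 ratio of *tbx16* to *tbx6* was 4.85 to 5.37 in wild-type and 5.38 to 5.96 in *miR-34a-/-* libraries, a difference of 0.60 between the means (exact permutation p = 0.0286, adjusted over 4 pairs 0.0571). The log2 ratio of *tbx16* to *msgn1* was 1.59 to 1.99 in wild-type and 1.35 to 1.53 in *miR-34a-/-* libraries, a difference of -0.37 (exact permutation p = 0.0286, adjusted 0.0571). In both pairs the genotypes did not overlap. For *mespaa* to *mespab* the ratios overlapped and the difference was -0.16 (exact permutation p = 0.0571, adjusted 0.0762). For *myf5* to *myod1*, where few *myod1* counts made the ratio unstable, the difference was 0.74 (exact permutation p = 0.229, adjusted 0.229). After adjustment no pair passed 0.05, and 4 libraries against 4 could not have gone below 0.0286 before it.

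**Figure D3:**
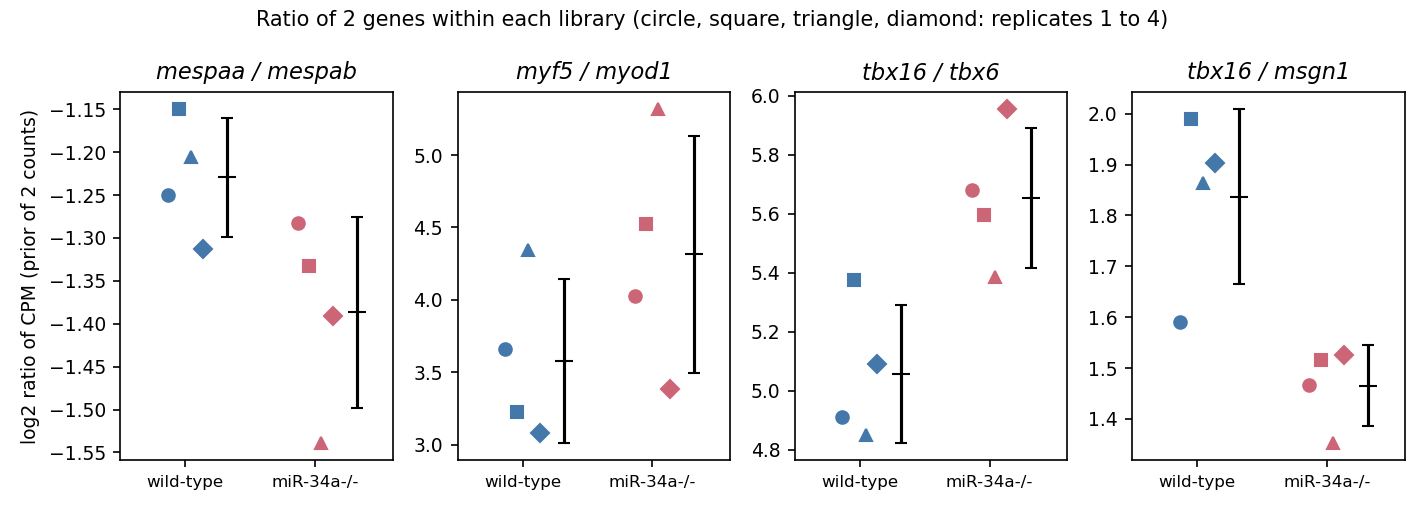
Log2 ratio of the CPM of 2 genes within each library (vertical axis, prior of 2 counts) for 4 pairs, with wild-type in blue, *miR-34a-/-* in red, and the mean and SD as black bars. The vertical axes do not start at 0, and the genotypes are separate for *tbx16* to *tbx6* and *tbx16* to *msgn1* and overlap for the other 2 pairs.

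The other genes of the same steps were taken from 4 lists, of which 34 of 55 genes were found by symbol and 25 could be tested. In all, 11 were lower, 2 were higher and 12 did not pass the test. Among all genes tested 22.4% were called lower, 23.0% higher and 45.4% in either direction, and these shares stand beside each list below. Of the clock and presomitic genes, which include the oscillating *her* repressors and the Notch ligands that couple them, 7 of 10 tested were lower and 0 higher, with a median log2 fold change of -0.21. The largest fall was that of *ripply2*, the paralog of *ripply1*, from 3.03 ± 0.529 to 1.42 ± 0.247 CPM (SD, n = 4 each). The fitted log2 change was -1.06 (SE 0.24, adjusted p = 0.00063, edgeR), and the genotypes did not overlap. The fall of *ripply2* rested on 9 to 33 counts per library, and glmTreat against a 1.5-fold change did not call it (adjusted p = 0.085). *tbx16l*, the closest paralog of *tbx16*, went from 96.0 ± 10.1 to 76.7 ± 7.17 CPM (log2 fold change -0.33, SE 0.07, adjusted p = 0.00028, edgeR), with overlapping ranges. *dlc*, a Notch ligand of the clock, went from 150 ± 18.8 to 119 ± 2.17 CPM (log2 fold change -0.34, SE 0.06, adjusted p = 4.4e-05, edgeR) without overlap.

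The paralogs of the Mesp genes were close to the limit of detection. *mespba* had 8 to 26 counts per library and a fitted change of -0.18 on the log2 scale (SE 0.28, adjusted p = 0.63, edgeR), and *mespbb*, with 4 to 17 counts, was not tested. Of the clock repressors, *her1* at -0.16 and *her12* at -0.58 were lower, whereas *her7* at 0.05 and *her11* at 0.08 (log2 fold changes) did not pass the test. *dld* at -0.22 and *lfng*, the modifier of Notch, at -0.21 were also lower.

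Among the posterior mesoderm progenitor genes 3 of 6 tested were lower and 1 was higher, with a median log2 fold change of -0.21. *tbxta*, the zebrafish Brachyury gene of the tail and notochord progenitors, went from 656 ± 17.7 to 570 ± 23.4 CPM (log2 fold change -0.20, SE 0.04, adjusted p = 8.0e-05, edgeR). *fgf24*, an FGF ligand that acts with *fgf8a* in posterior mesoderm, went from 23.7 ± 1.68 to 15.6 ± 0.594 CPM (log2 fold change -0.60, SE 0.09, adjusted p = 2.8e-06, edgeR). Neither gene overlapped between the genotypes. *eve1* was lower at -0.23, the Wnt target *sp5l* was higher at 0.11, and *cdx4* at 0.06 and *cdx1a* at -0.21 did not pass the test.

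The genes of the somite and muscle lists were barely read or did not move together. Of 6 somite genes tested, 1 was lower, 1 higher and 4 did not pass, with a median log2 fold change of -0.08. Well read among those not called were *snai1a* and *aldh1a2*. *snai1a* had 1948 to 4505 counts per library (log2 fold change -0.08, adjusted p = 0.20, edgeR), and *aldh1a2* had 1125 to 2515 (-0.09, adjusted p = 0.16). *meox1* went from 1.41 ± 0.476 to 0.670 ± 0.337 CPM (log2 fold change -1.02, SE 0.37, adjusted p = 0.025, edgeR), on 3 to 23 counts per library. The call was lost without replicate 1 of the mutants (adjusted p = 0.065) and in DESeq2 (0.0996), and *meox1* was removed as too low without replicate 2 or 3 of wild-type, without replicate 2 or 4 of the mutants, after thinning to the smallest library and under a filter of at least 10 counts in every library of a genotype. *tcf15*, the gene of the somite factor paraxis, went from 2.12 ± 0.313 to 3.25 ± 0.848 CPM (log2 fold change 0.65, SE 0.23, adjusted p = 0.021, edgeR) with overlapping ranges. Its call was lost without replicate 1 (adjusted p = 0.058) or 2 (0.051) of wild-type, without replicate 2 (0.061) or 4 (0.11) of the mutants, in DESeq2 (0.10) and after thinning all libraries to the smallest (0.22).

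Of the muscle genes, 10 of 19 were found and 3 tested, and 0 of them passed in either direction. The 3 were *mef2d*, a myogenic cofactor, at a log2 fold change of -0.37 (adjusted p = 0.079, edgeR), the muscle creatine kinase gene *ckma* at -0.43 (adjusted p = 0.31) and the actin gene *actc1b* at 0.05 (adjusted p = 0.90). The value of *ckma* was -0.12 without replicate 4 of wild-type and -0.64 without replicate 1. *myog*, which drives differentiation after *myf5* and *myod1*, had 0 counts in all libraries. *myf6*, the neighbour of *myf5*, had 2 counts in replicate 2 of the mutants and 0 in the other libraries. A count of 0 allows up to 3 counts per library.

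**Figure D4:**
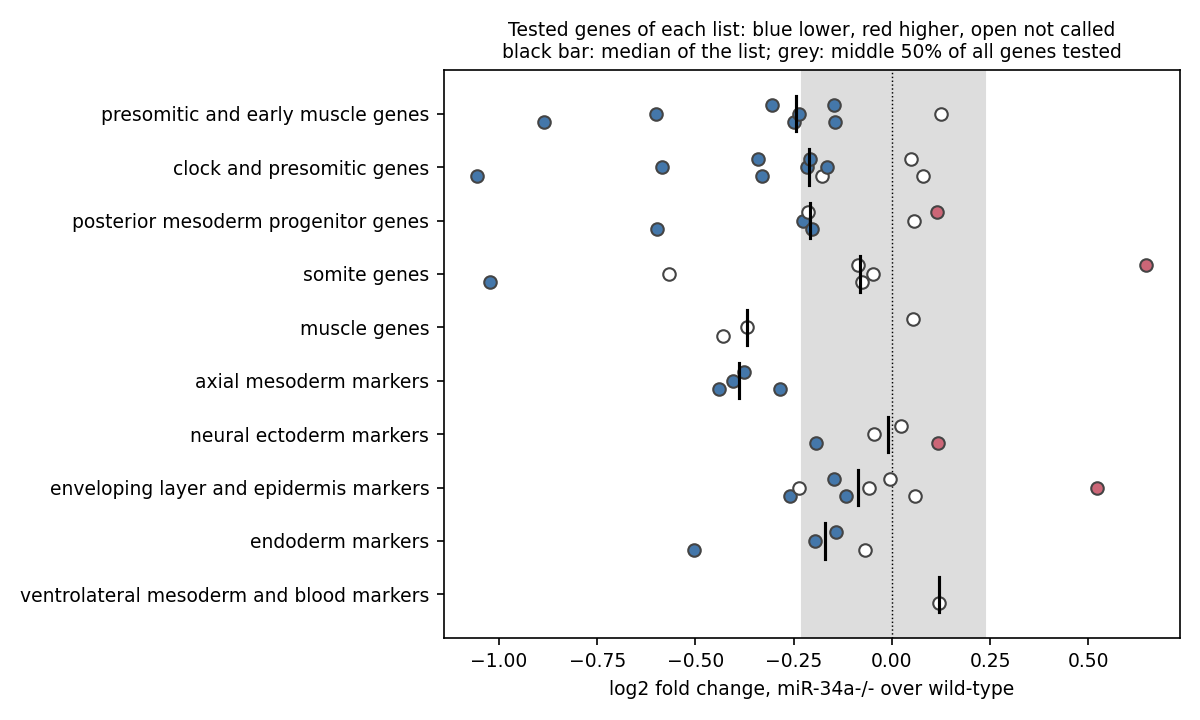
Log2 fold change (*miR-34a-/-* over wild-type, horizontal axis) of each tested gene of the 9 genes examined and of 9 lists, 4 of related steps and 5 of other embryonic cell types, with the median of each list as a black bar and the middle 50% of all genes tested in grey. The median of the genes examined (presomitic and early muscle genes) lay at -0.24. The medians of the clock and presomitic list and of the progenitor list lay at -0.21. That of the axial mesoderm list was -0.39 and that of the neural list -0.01.

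The libraries were made from whole embryos, so marker lists of other cell types were read in the same way. Among all genes tested 22.4% were called lower and 23.0% higher. Axial mesoderm markers were lower in 4 of 4 tested (median log2 fold change -0.39), their summed level was 216 to 263 CPM in wild-type and 178 to 194 CPM in *miR-34a-/-* libraries, and the hatching gland gene *ctslb* was at the floor everywhere. Endoderm markers were lower in 3 of 4 tested (median -0.17), with sums of 505 to 561 and 446 to 510 CPM. Neural ectoderm markers were lower in 1, higher in 1 and not called in 2 (median -0.01), with sums of 1121 to 1371 and 1194 to 1339 CPM. Enveloping layer and epidermis markers were lower in 3, higher in 1 and not called in 4 (median -0.09), with sums of 15034 to 17020 and 15347 to 16121 CPM. The ventrolateral mesoderm and blood list had 1 gene tested and 0 called (log2 fold change 0.12), with sums of 19.4 to 22.4 CPM in wild-type and 21.2 to 24.95 CPM in *miR-34a-/-* libraries, and *hand2* and *gata1a* were at the floor everywhere. The 9 genes examined summed to 929 to 1041 CPM in wild-type and 862 to 921 CPM in *miR-34a-/-* libraries. The largest part of that sum was *tbx16*, with 492 to 542 CPM in wild-type and 417 to 462 CPM in *miR-34a-/-* libraries. The part of the axial and endodermal marker levels in these results was not tested.

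For each gene called lower, the tested gene with the most similar profile was found, with the 9 genes examined left out of the search. The measure was the root mean square difference of centred log2 CPM over the 8 libraries. The nearest to *tbx6* was *gtf3c2*, at a difference of 0.098 and with a log2 fold change of -0.97, and the nearest to *myf5* was ENSDARG00000098478, at 0.083. *tbx6* and *myf5* had the fewest counts of the 7 genes, at 80 to 211 and 61 to 124 per library. The part of low counts in these differences was not tested. For the other 5 the difference was 0.030 to 0.033, with *IREB2* nearest to *tbx16*, *LGMN* to *mespaa*, *OTUD5* to *mespab*, *GLE1* to *ripply1* and *VPS9D1* to *pcdh8*. *OTUD5* (log2 fold change -0.11, adjusted p = 0.13, edgeR) and *VPS9D1* (-0.16, adjusted p = 0.058) did not pass the test, and the other nearest genes were called lower. Since the search also matched the difference between the genotypes, calls in the same direction follow from it. None of the 7 nearest genes belonged to the 9 lists, but only 61 list genes were found, against 13842 genes tested.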

How the data were processed

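Reads were trimmed (Trim Galore 0.4.4) and mapped to danRer11 (STAR 2.7.8) by the authors, who deposited counts per Ensembl gene, whole numbers without normalization. The counting program, annotation release and use of strand are not given in the sources used here. CPM with TMM scaling and the tests of genotype were obtained from these counts with edgeR 4.0.16 under R 4.3.3 (filterByExpr, quasi-likelihood test, Benjamini-Hochberg over 13842 genes, all 8 libraries). The test had first been checked on simulated data, in which far fewer genes changed than were called here. SE was the size of the log2 fold change over the square root of F.

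Symbols came from a table of gene names for 29201 of 32520 genes, first as written and then regardless of case where 1 gene matched. Gene order came from RefSeq GRCz12tu, and no coordinates are given. Single genes and ratios (prior of 2 counts) were compared by 2-sided exact permutation tests over libraries.

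The 9 genes and the lists were chosen with earlier results of these data known. Named list genes were, per list, the 2 with the smallest adjusted p and the closest paralogs of the 9 genes. The *her* genes, *dld*, *lfng*, *eve1*, *sp5l*, *cdx4*, *cdx1a*, *snai1a*, *aldh1a2*, *actc1b*, *ctslb*, *hand2* and *gata1a* were named after their values were seen. Alternatives were other normalizations, filters and tests (limma 3.58.1, DESeq2 1.42.0), thinning, a replicate block and leaving out each library. Plots used matplotlib 3.10.9 under Python 3.11.15.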

Additional observations from a re-analysis of the deposited data

Results flagged for a closer look

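In 36 groups of 4 libraries (the tested genes among the 9 and among the named list genes, in each genotype), 2 held a library whose gap to the nearest of the others was above Dixon's 95% critical value for 4 values, which chance gives in about 1 in 20 groups. *mespaa* was at 31.8 CPM in replicate 4 of wild-type and between 37.1 and 38.0 CPM in replicates 1 to 3. *mef2d* was at 6.02 CPM in the same library, replicate 4 of wild-type, and between 5.01 and 5.15 CPM in replicates 1 to 3.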

How the results depend on the processing

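The counts of 7 lower and 0 higher among the 8 genes tested were the same under the RLE, upper quartile and library total normalizations, the likelihood ratio test, limma-voom, thinning and the stricter filter on low counts. Under these settings 2708 to 3382 of all genes were lower and 2711 to 3230 higher. DESeq2, run without this filter, covered all 9 genes and gave 6 lower, without *mespab*, and 0 higher. Of the 25220 genes it covered, 2684 were lower and 2728 higher. Without the filter all 9 genes were tested, 7 were lower (with *myod1* and without *mespab*) and 1 was higher (*msgn1*). Of all 25220 genes then tested, 3444 were lower and 3551 higher. Against a 1.5-fold change (glmTreat) 1 of the 8 genes was lower, 0 list genes were lower and 0 higher, and of all genes 536 were lower and 542 higher. Of the list genes, 1 rather than 2 was higher and 8 rather than 11 lower in DESeq2, with 1 higher and 8 lower after thinning too. DESeq2 covered 32 list genes and the thinned fit 23, against 25 in the main fit.

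Leaving out 1 library gave 5 to 7 of the 8 genes lower and 0 to 1 higher, 9 to 11 list genes lower and 1 to 2 higher, and 2835 to 3019 of all genes lower and 2856 to 3058 higher. The differences in log2 ratio then ranged from 0.50 to 0.70 for *tbx16* to *tbx6*, from -0.45 to -0.32 for *tbx16* to *msgn1*, from -0.19 to -0.11 for *mespaa* to *mespab* and from 0.41 to 0.99 for *myf5* to *myod1*, which was 1.46 with a prior of 0.5 counts. The log2 fold change of *mespba* ranged from -0.30 to 0.0047, the positive value (adjusted p = 0.99, edgeR) without replicate 1 of the mutants. The cause was not tested.

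Same-numbered libraries did not deviate together (correlations over genes of -0.032 to 0.0077), so the numbers were not taken as pairs. With the replicate block 7 of the 8 genes were lower and 0 higher, and 12 list genes were lower and 2 higher. Of all genes, 2990 were lower and 3092 higher with the block. On CPM without TMM scaling, 6 rather than 5 of the 8 genes were lower in every mutant library. The share of all genes separated in this way was not computed without TMM scaling. Low counts limit what can be said of *myod1*, *myog*, *myf6* and *mespbb*, which had at most 17 counts in any library.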
